A study of Mus musculus with 24 samples.

Results

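Vitamin A and vitamin D act on cells through nuclear receptors, and 7 mouse genes of these pathways were followed here through the activation of splenic CD4+ T cells: Crabp2, Rara, Rarg, Rxra, Rxrb, Dhrs3 and Vdr. They are 7 of the 54446 gene identifiers in the count table. The genes were chosen on measured values of the same libraries, foremost their levels over the time course, so their response to stimulation is described below with no p-value, and the number of members called in it stands only beside the share of all genes called. The genotypes were compared with a test across all genes. As the members were chosen with earlier results of these data known, their p-values in that test do not take account of the choice.

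Messenger RNA was sequenced from CD4+ T cells of the spleens of C57BL6 mice. The groups were wild-type cells (WT, mice 1, 3 and 4) and cells of mice lacking Aim2, a sensor of cytosolic DNA (Aim2-/-, mice 1, 2 and 4), each sampled before stimulation (0 h) and 3, 6 and 24 h into TCR activation, which was brought about by anti-CD3 (the T cell receptor complex) together with anti-CD28 (a costimulatory receptor). Every mouse gave cells at all 4 times, which makes 8 groups of 3 libraries and 24 libraries in all. Per the methods of the study, mice of both genotypes descended from purchased stock of the same background, were bred in the same facility and shared cages. The cells were enriched by magnetic removal of the others, so that some other spleen cells can remain. The sequencing reported in that study was of naive cells and of cells undergoing regulatory T cell differentiation, not of these libraries. Animals were matched for sex and age, but ages were not given in the sources used here.

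Library totals lay between 19715161 and 21627018 counts. None of the 24 replicate pairs within a group held identical values, and every pair differed by more than counting noise. The 10 CD4+ T cell markers summed to 4455 to 6484 CPM per library (CPM are counts scaled to a common library total, so that libraries can be compared) and a pair of CD8 markers to 7.74 to 15.6 CPM. A WT mouse went against its label. The mouse labelled WT 1 held Aim2 at 21.5, 17, 11.5 and 5.57 CPM at 0, 3, 6 and 24 h, while the other WT mice held 75 and 67.5 CPM at 0 h and 34 and 38.7 CPM at 24 h, and the Aim2-/- mice 15.7 to 20.1 CPM at 0 h and 5.28 to 7.15 CPM at 24 h. It is written below as the mouse labelled WT 1. For the members, values of the genotype tests without it are given beside them or in the paragraph that follows them. Most markers of other cells were higher on average in the Aim2-/- libraries, though the ranges of some sums overlapped. The 12 myeloid markers summed to 48.0 to 497 CPM there against 20.7 to 97.8 CPM in WT, with all 12 higher on average in Aim2-/- at each of the 4 times, and the 10 B cell markers to 8.46 to 54.2 against 6.52 to 17.0 CPM, with Aim2-/- mouse 1 the highest in both lists. NK cell markers summed to 18.2 to 122 against 15.7 to 63.0 CPM and erythroid markers to 11.9 to 472 against 7.71 to 66.4 CPM, and no marker of these lists was at 0 in all libraries of a time. At 0 h, 9 of 10 B cell, 4 of 5 NK cell and all 6 erythroid markers were higher on average in Aim2-/-. The erythroid sum at 0 h was yet 21.1 CPM in Aim2-/- mouse 2 and 65.8 CPM in WT mouse 3. The NK cell sums overlapped at 24 h (18.2 to 30.3 against 15.7 to 23.4 CPM). In WT, the median sums of these lists were also lower at 24 h than at 0 h. They were 80.8 and 24.4 CPM at 0 and 24 h for myeloid and 51.2 and 18.1 CPM for NK cell markers. For B cell markers they were 14.8 and 6.84 CPM, and for erythroid markers 14.1 and 11.2 CPM. The CD4+ T cell marker sum had medians of 6309 and 4743 CPM. The part of other cells in changes over time was not tested. In such bulk libraries, fewer cells of a type and less RNA per cell cannot be told apart.

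As background, vitamin A circulates as retinol. Oxidation of retinol gives retinal and then retinoic acid, a step that enzymes such as Dhrs3 oppose by turning retinal back into retinol. Retinoic acid enters the nucleus bound to carriers such as Crabp2, which hands it to the retinoic acid receptors Rara, Rarb and Rarg. These bind DNA as pairs with a retinoid X receptor (Rxra, Rxrb or Rxrg), and so does Vdr, the receptor for the active form of vitamin D. In T cells, retinoic acid is known for imprinting the gut-homing molecules Ccr9 and the integrin of Itga4 and Itgb7, and for favouring regulatory T cells, while vitamin D is known for restraining effector responses.

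On the GRCm38 build, Dhrs3 lies on chromosome 4 (chr4:144892827-144928209, plus strand) and Crabp2 on chromosome 3 (chr3:87948666-87953376, plus). Rara lies at chr11:98927818-98974942 (plus) and Rarg at chr15:102234938-102257517 (minus). Rxra lies at chr2:27676440-27762957 (plus), Rxrb at chr17:34031812-34038399 (plus) and Vdr at chr15:97854425-97910630 (minus). All are protein-coding, and no exon base of any member is shared with another annotated gene. Among all 51-base stretches of their transcripts, the length of the reads, Rara shared 12 of 4356 (0.275%) with other genes and the remaining members shared none.

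The promoters of receptors and enzyme are shown because receptors of this family bind the hexamer AGGTCA and the related AGTTCA. RefSeq windows from 250 bases before to 50 bases after a start site were at hand for 6 of the 7 members, 14 windows in all (build GRCm38.p6); Crabp2 had none. On either strand, 5 of the 14 windows held AGGTCA or AGTTCA, of Rxra, Rara (in 2 windows), Vdr and Rarg, while 27.7% of all 32851 mouse promoter windows held either of them (16.3% AGGTCA and 14% AGTTCA). None held a pair of such hexamers repeated in the same direction with 1 to 5 bases between them, which 0.201% of all windows do. Some windows of Dhrs3 and of Rara overlap each other, so the 14 are not independent and nothing is read from their count. In the windows printed here, 5′ to 3′ along the gene, the hexamers are in capitals, also where the match is on the other strand; a match is a match of letters and not a shown binding site. Rxra (chr2:27676951-27677250) and Rarg (chr15:102246451-102246750) each had another window, not printed, without a match. The windows are those of Rxra (chr2:27709042-27709341, plus), Vdr (chr15:97908247-97908546, minus), Rarg (chr15:102257473-102257772, minus) and, for Dhrs3 (chr4:144892577-144892876, plus), a window without a match.
Rxra: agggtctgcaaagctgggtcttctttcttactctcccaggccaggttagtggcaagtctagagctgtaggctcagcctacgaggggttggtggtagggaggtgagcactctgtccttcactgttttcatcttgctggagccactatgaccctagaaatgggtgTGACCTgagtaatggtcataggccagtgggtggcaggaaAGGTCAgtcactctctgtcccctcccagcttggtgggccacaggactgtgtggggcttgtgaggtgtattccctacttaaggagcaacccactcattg
Vdr: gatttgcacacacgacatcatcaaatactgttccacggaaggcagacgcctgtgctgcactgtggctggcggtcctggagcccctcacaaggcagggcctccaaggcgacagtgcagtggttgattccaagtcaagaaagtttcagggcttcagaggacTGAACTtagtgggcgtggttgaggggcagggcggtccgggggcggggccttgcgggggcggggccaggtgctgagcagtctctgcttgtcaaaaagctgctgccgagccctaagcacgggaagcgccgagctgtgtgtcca
Rarg: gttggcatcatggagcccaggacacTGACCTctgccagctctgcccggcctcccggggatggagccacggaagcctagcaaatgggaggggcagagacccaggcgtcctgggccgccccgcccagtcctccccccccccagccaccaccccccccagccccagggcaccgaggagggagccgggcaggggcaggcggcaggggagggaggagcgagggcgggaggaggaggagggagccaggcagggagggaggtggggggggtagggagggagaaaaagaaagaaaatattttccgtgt
Dhrs3: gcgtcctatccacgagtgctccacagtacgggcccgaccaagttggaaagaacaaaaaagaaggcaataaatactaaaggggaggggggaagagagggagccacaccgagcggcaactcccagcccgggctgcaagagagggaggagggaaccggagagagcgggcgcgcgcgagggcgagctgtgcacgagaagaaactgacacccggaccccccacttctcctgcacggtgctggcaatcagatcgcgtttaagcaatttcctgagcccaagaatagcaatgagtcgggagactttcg
The Rxra matches start 87 and 48 bases before the start site, that of Vdr 91 bases and that of Rarg 225 bases before it.

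The response to stimulation differed from member to member and was alike in direction in WT and Aim2-/- cells at 24 h. By 24 h Crabp2 and Rxra were higher than at 0 h, and Rara, Rarg, Dhrs3 and Vdr were lower, in each of the 6 mice, while Rxrb changed least over this interval. Levels by library are plotted for the 7 genes.

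**Figure D1:**
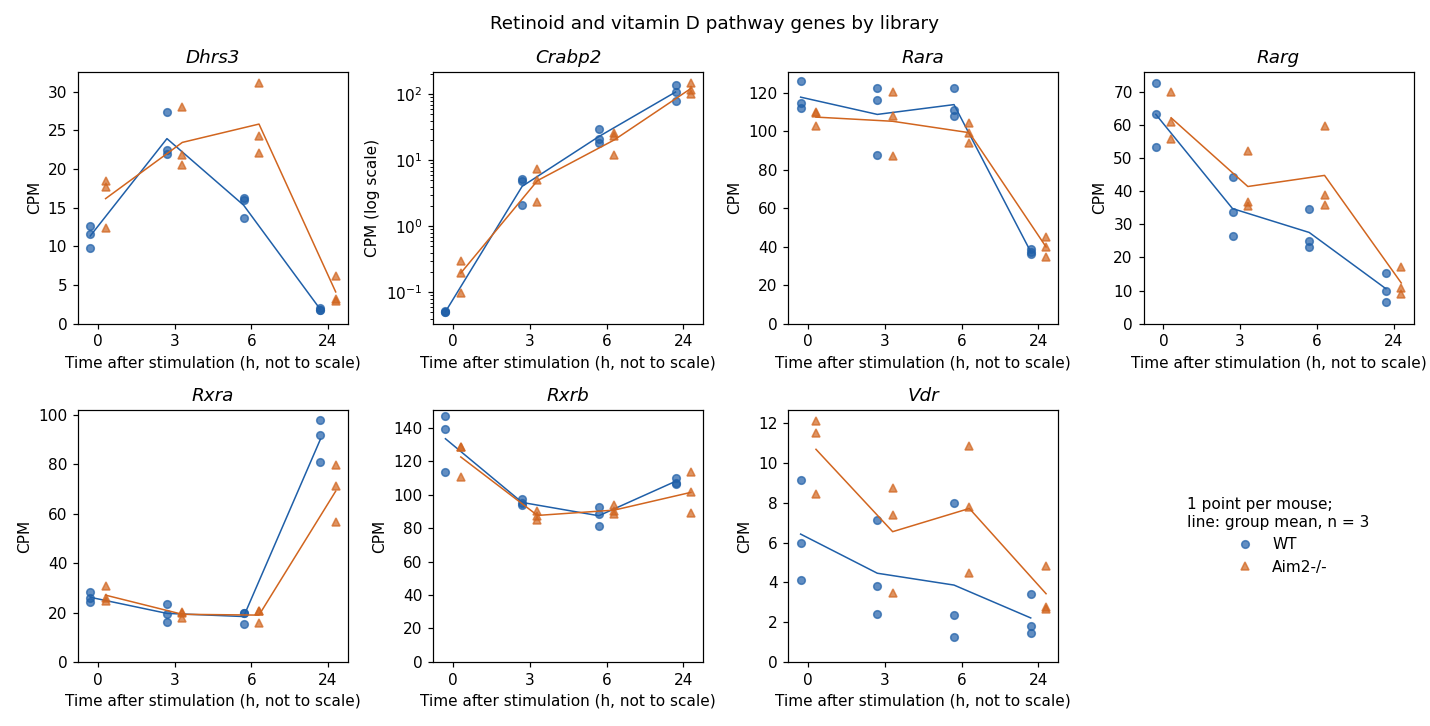
CPM of the 7 genes in each of the 24 libraries (y axis, logarithmic for Crabp2 only) against time after stimulation (x axis, evenly spaced); blue circles are WT and orange triangles Aim2-/- mice, and lines join the means of 3 mice. Crabp2 went from at most 0.295 CPM at 0 h to at least 78.4 CPM at 24 h, and Dhrs3 of Aim2-/- lay above WT at 6 and 24 h.

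Dhrs3, the retinal reductase, moved in both directions. In the mouse labelled WT 1 and in WT mice 3 and 4, an order kept below, it stood at 12.7, 9.77 and 11.6 CPM at 0 h, 21.9, 22.5 and 27.4 CPM at 3 h, 16.3, 13.7 and 16 CPM at 6 h, and 1.98, 1.75 and 1.80 CPM at 24 h. In Aim2-/- mice 1, 2 and 4 the levels were 18.5, 12.4 and 17.7 CPM at 0 h, 28.0, 21.9 and 20.5 CPM at 3 h, 31.1, 24.3 and 22.0 CPM at 6 h, and 6.16, 2.97 and 3.18 CPM at 24 h. The gene was thus highest at 3 or 6 h in every mouse and lowest at 24 h in every mouse. Its log2 fold changes against 0 h were 1.08, 0.43 and -2.62 in WT and 0.54, 0.67 and -1.97 in Aim2-/- at 3, 6 and 24 h.

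Crabp2, the carrier that delivers retinoic acid to its receptors, was next to absent from resting cells and higher at each later time. WT libraries held 1 count each at 0 h (0.0508 CPM on average), then 4.86, 5.15 and 2.10 CPM at 3 h, 18.3, 29.4 and 21.1 CPM at 6 h and 78.4, 107 and 140 CPM at 24 h. Against a floor of 3 counts per library, the WT mean was at least 26.5-fold higher at 3 h, 150-fold at 6 h and 711-fold at 24 h, bounds that cover counting error only. They hold for the group mean and not for each mouse. At 3 h, WT mouse 4 held 2.10 CPM against a mean of 4.04 CPM. Aim2-/- libraries held 4, 2 and 6 counts at 0 h and reached 2.32, 5.09 and 7.39 CPM at 3 h, 12.2, 25.6 and 23.3 CPM at 6 h, and 118, 103 and 147 CPM at 24 h. The ratio of summed counts in Aim2-/- was 24.8 at 3 h (exact 95% interval 14.0 to 48.5), 103 at 6 h (58.8 to 200) and 625 at 24 h (358 to 1211), intervals for counting error alone. Values at 3, 6 and 24 h did not overlap within a genotype.

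Of the retinoic acid receptors, Rara held its level for 6 h and then dropped, while Rarg was lower from 3 h on. Rara stood at 112, 126 and 115 CPM in WT and 109, 110 and 103 CPM in Aim2-/- at 0 h, and between 87.0 and 123 CPM in all 12 libraries of 3 and 6 h. At 24 h it stood at 38.6, 36.3 and 37.2 CPM in WT and 45.0, 34.7 and 40.1 CPM in Aim2-/-, log2 changes of -1.66 and -1.43. Rarg stood at 72.7, 53.4 and 63.4 CPM in WT and 69.8, 60.7 and 55.8 CPM in Aim2-/- at 0 h. At 3 h it was at 44.3, 26.4 and 33.6 CPM in WT and 52.0, 36.8 and 35.4 CPM in Aim2-/-. At 6 h WT held 34.5, 23.0 and 25.0 CPM and Aim2-/- 59.5, 38.8 and 35.9 CPM, so that the groups did not overlap. At 24 h the levels were 15.4, 6.42 and 9.80 CPM against 17.2, 10.7 and 8.93 CPM, log2 changes of -2.58 in WT and -2.34 in Aim2-/-. Every mouse had less Rarg at 3 h than at 0 h. Rarb, the remaining receptor of the group, had 1 count in the 24 libraries together.

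The retinoid X receptors went apart. Rxra stood at 24.5, 25.8 and 28.3 CPM in WT and 30.8, 25.8 and 24.5 CPM in Aim2-/- at 0 h, between 15.5 and 23.4 CPM in the 12 libraries of 3 and 6 h, and at 97.9, 91.7 and 80.8 CPM in WT and 71.2, 79.6 and 56.6 CPM in Aim2-/- at 24 h. The 6 h and 24 h libraries were far apart in every mouse, and the log2 changes at 24 h were 1.78 and 1.35. Rxrb stood at 114, 147 and 139 CPM in WT and 111, 128 and 128 CPM in Aim2-/- at 0 h, at 85.1 to 97.6 CPM at 3 h and 81.3 to 93.5 CPM at 6 h over both genotypes, and at 89.1 to 114 CPM at 24 h. Its log2 changes lay between -0.61 and -0.27 at all times. Rxrg had 11 counts in the 24 libraries together.

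Vdr, the vitamin D receptor, was the least abundant of the 5 receptors among the members. It stood at 9.15, 4.14 and 5.98 CPM in WT and 11.5, 12.1 and 8.42 CPM in Aim2-/- at 0 h, at 7.13, 2.41 and 3.83 CPM against 7.39, 8.76 and 3.48 CPM at 3 h, and at 7.98, 1.27 and 2.34 CPM against 10.9, 7.81 and 4.48 CPM at 6 h. At 24 h the levels were 3.39, 1.44 and 1.80 CPM against 4.84, 2.67 and 2.77 CPM. The mouse labelled WT 1 had the most Vdr of the WT mice at each time and lay within the Aim2-/- range at 0, 3, 6 and 24 h. Log2 changes at 24 h were -1.54 in WT and -1.64 in Aim2-/-, and at 6 h -0.73 in WT, or -1.49 without the mouse labelled WT 1.

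All 7 members passed the filter on low counts, Crabp2 through its stimulated libraries alone. The share of all 15325 tested genes that was called, that is had an adjusted p under 0.05, is given here as the background of their counts, from which nothing is read since the members were chosen on this response. At 3 h in WT, 2 members were called higher (16.2% of all genes) and 3 lower (16.4%), and in Aim2-/- 1 higher (16.1%) and 2 lower (14.6%). At 6 h in WT, 1 member was called higher (26.4%) and 3 lower (24.8%), and in Aim2-/- 2 higher (28.5%) and 2 lower (22.7%). At 24 h, 2 members were called higher and 5 lower in each genotype, beside 36.6% and 34.8% of all genes in WT and 36.8% and 33.5% in Aim2-/-.

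Compared per kilobase of exon, which sets genes of unequal length on 1 scale, Rxrb and Rara led in resting cells and Crabp2 at 24 h. In WT cells at 0 h the mean levels were 33.6 CPM per kb for Rxrb, 27.0 for Rara, 14.8 for Rarg, 4.79 for Rxra, 3.88 for Dhrs3, 1.14 for Vdr and 0.0384 for Crabp2. Only Rxrb and Rara overlapped between neighbours in this order. At 24 h in WT the order was Crabp2 (82.0 CPM per kb), Rxrb (27.2), Rxra (16.5), Rara (8.57), Rarg (2.47), Dhrs3 (0.629) and Vdr (0.391), in which Dhrs3 and Vdr overlapped. The order at 24 h in Aim2-/- was the same, from 92.8 CPM per kb for Crabp2 to 0.607 for Vdr, with an overlap of Rarg (2.89) and Dhrs3 (1.40). At 6 h Rara, Rxrb and Crabp2 had the highest means in both genotypes, Crabp2 at 17.3 CPM per kb in WT and 15.4 in Aim2-/-, where its range overlapped that of Rarg (10.5).

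The make-up of the receptor messages changed with these levels. Per kb, the summed level of Rara, Rarb and Rarg was 41.8 ± 0.814 CPM per kb in WT and 39.2 ± 2.39 in Aim2-/- at 0 h (SD, n = 3) and 11.0 ± 1.33 and 12.0 ± 2.05 at 24 h. That of the RXR genes was 38.4 ± 4.65 and 35.8 ± 1.96 CPM per kb at 0 h and 43.7 ± 1.92 and 38.2 ± 4.35 at 24 h. Rarg made up 35.4% ± 4.88 of the RAR sum in WT at 0 h and 19.8% ± 4.40 at 6 h, and in Aim2-/- 37.1% ± 2.10 and 31.3% ± 7.07. At 6 h its share was 16.1 to 24.7% in the WT mice and 26.0 to 39.3% in the Aim2-/- mice, which did not overlap, and 16.1 and 18.7% in WT mice 3 and 4. The share of Rxra in the RXR sum was 12.6% ± 1.15 in resting WT cells, 13.3% ± 2.16 after 6 h and 37.7% ± 2.06 after 24 h. In Aim2-/- the same shares were 13.9% ± 2.54, 13.2% ± 1.54 and 33.2% ± 3.96. In WT mice 3 and 4 the share at 24 h was 38.5 and 35.4%. No test was run on these shares.

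**Figure D2:**
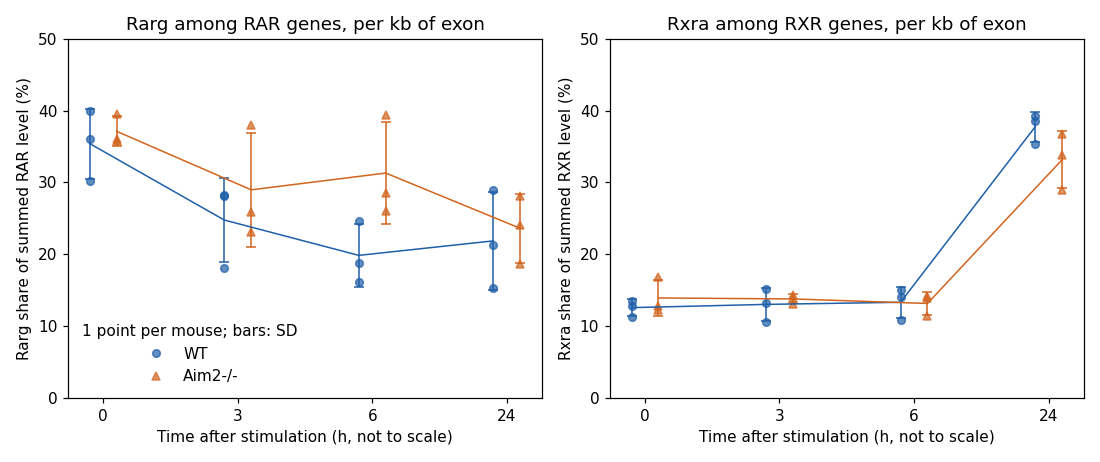
Share of Rarg in the summed level of the RAR genes (left) and of Rxra in that of the RXR genes (right), in percent of CPM per kb of exon, by time after stimulation (evenly spaced); points are mice, lines join group means, and bars are SD (n = 3). The Rxra share went from 12.6% to 37.7% in WT between 0 and 24 h, and the Rarg share at 6 h was 19.8% in WT and 31.3% in Aim2-/-.

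Whether loss of Aim2 went with other levels of these genes was asked at each time, with edgeR's quasi-likelihood test and Benjamini-Hochberg adjustment over all genes tested. Aim2 itself, with log2 fold changes of -1.58, -1.43, -1.34 and -2.04 at 0, 3, 6 and 24 h, did not pass this test (adjusted p = 0.0794, 0.224, 0.0885 and 0.0784). The mouse labelled WT 1 was kept in WT there, and Aim2 without it is not given here. In 13 alternative fits (other settings, or 1 mouse fewer), Aim2 passed in 3, 2, 2 and 4 at 0, 3, 6 and 24 h. Its log2 fold change was negative in all of them. As the lost gene itself did not pass the fit used here, a member that did not pass is not shown to be unchanged. Of the members, Dhrs3 alone passed. Aim2-/- cells held more of it at 6 h, with 31.1, 24.3 and 22.0 CPM against 16.3, 13.7 and 16 CPM (log2 fold change 0.75 ± 0.21 SE, adjusted p = 0.0266), and at 24 h, with 6.16, 2.97 and 3.18 CPM against 1.98, 1.75 and 1.80 CPM (1.16 ± 0.25, adjusted p = 0.0379). The lowest Aim2-/- mouse lay above the highest WT mouse at both times. At 6 h, 1 of 7 members was thus called beside 15.8% of all genes, and at 24 h 1 of 7 beside 0.666%. At 0 h the difference in Dhrs3 was 0.51 (adjusted p = 0.155) and the groups overlapped, and at 3 h they overlapped as well.

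**Figure D3:**
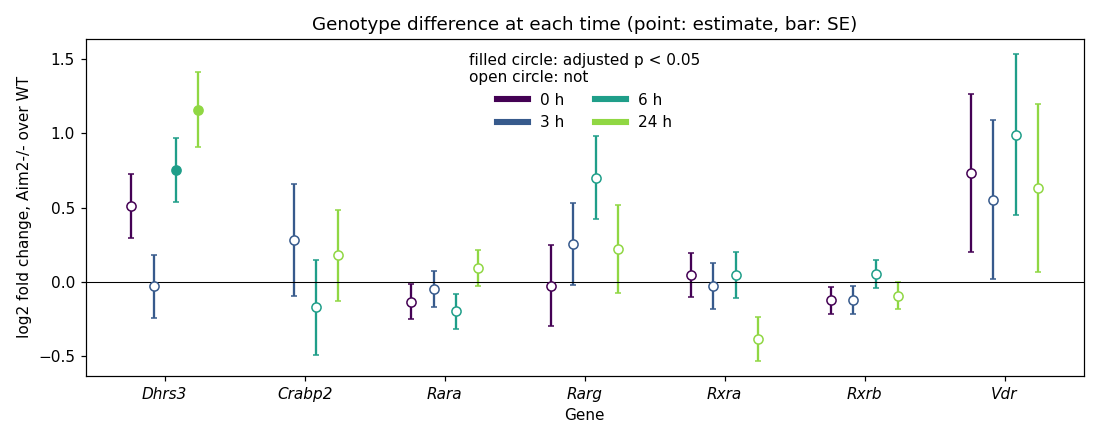
Log2 fold change of Aim2-/- over WT for the 7 genes at 0, 3, 6 and 24 h (colours), with bars for the SE of the fit on 3 against 3 mice; filled circles have an adjusted p under 0.05. Dhrs3 at 6 h (0.75) and 24 h (1.16) carries the filled circles, and Crabp2 at 0 h is left out because its WT libraries lay under the floor.

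The calls on Dhrs3 held without Aim2-/- mouse 2 (0.79 at 6 h, adjusted p = 0.0135, and 1.34 at 24 h, adjusted p = 0.00324) and were lost without any other mouse. Without the mouse labelled WT 1 the difference was 0.80 at 6 h (adjusted p = 0.0546) and 1.21 at 24 h (adjusted p = 0.0734). Without Aim2-/- mouse 1, which was highest in Dhrs3 at all 4 times and in the myeloid and B cell marker sums, it was 0.60 at 6 h (adjusted p = 0.0561) and 0.74 at 24 h (adjusted p = 0.249). The remaining losses were without Aim2-/- mouse 4 (adjusted p = 0.054 and 0.0791), WT mouse 3 (0.142 and 0.358) or WT mouse 4 (0.106 and 0.150), while all these estimates stayed positive. At 6 h the myeloid marker sum was 116 to 327 CPM in Aim2-/- and 45.7 to 97.8 CPM in WT and the B cell marker sum 18.5 to 51.1 against 9.15 to 13.9 CPM, and at 24 h the sums were 48.0 to 251 against 20.7 to 39.5 CPM and 8.46 to 31.0 against 6.52 to 6.99 CPM. At 24 h the Dhrs3 difference was also not called by limma-voom (1.07, adjusted p = 0.173) or with only the 24 h libraries fitted (1.18, adjusted p = 0.198). The part of other cells in the Dhrs3 difference was not tested.

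No member was called at 0 h, where 5.23% of all genes were (1 member at an unadjusted p under 0.05; DESeq2 and limma-voom called 0), or at 3 h, where 0.294% of all genes were (0 members unadjusted; 0 by either tool). With the mouse labelled WT 1 left out, edgeR again called 0 members at 0 h (5.77% of all genes) and at 3 h (2.71%). With the 4 libraries of a mouse summed, 0 members were called beside 0.0117% of 17163 genes (1 member unadjusted, Dhrs3 at 0.42, adjusted p = 0.169). DESeq2 called 0 members beside 10.1% of all genes and limma-voom 0 beside 0%. Without the mouse labelled WT 1 edgeR called 0 members beside 0.854%, with Dhrs3 at 0.43 (adjusted p = 0.229), and without Aim2-/- mouse 2 it called 0 beside 16.7%. On the mean of log2 CPM over the 4 times, Dhrs3 of the Aim2-/- mice lay above that of the WT mice, 4.16, 3.58 and 3.67 against 3.31, 3.12 and 3.32, and the exact permutation test (two-sided, n = 3 and 3) gave p = 0.1, the smallest that 3 against 3 mice allow. The same test gave 0.2 to 0.5 for the remaining 6 members. Without the mouse labelled WT 1 (n = 3 and 2) the exact permutation test gave p = 0.2, the smallest it then allows, for Dhrs3, Rarg, Rxrb and Vdr, and 0.4 to 0.8 for the others.

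Rarg, Vdr and Rxra had differences at an unadjusted p under 0.05 or were called without a mouse. Rarg at 6 h was higher in Aim2-/- by 0.70 ± 0.28 (adjusted p = 0.0846), with groups that did not overlap, and passed without the mouse labelled WT 1 (0.90, adjusted p = 0.0418), where 11.4% of all genes were called. Vdr at 6 h differed by 0.99 ± 0.54 (adjusted p = 0.200) and passed without the mouse labelled WT 1 (2.09, adjusted p = 0.0142). Rxra at 24 h was lower in Aim2-/- by a log2 value of -0.38 ± 0.15 (adjusted p = 0.161), again without overlap, and by -0.32 without the mouse labelled WT 1 (adjusted p = 0.335). Rara at 0 h and at 6 h, and Rxrb at 3 h, also had all Aim2-/- mice below all WT mice, with log2 differences of -0.13, -0.20 and -0.12 that did not pass (adjusted p = 0.520, 0.244 and 0.540). Leaving out the mouse labelled WT 1, these were -0.17, -0.24 and -0.14 (adjusted p = 0.521, 0.263 and 0.445). The share of all genes whose genotypes did not overlap was not counted. Nothing is therefore read from a lack of overlap between genotypes in any member. Crabp2 at 0 h had 12 counts in the Aim2-/- and 3 in the WT libraries, a ratio of 3.86 with an exact 95% interval of 1.04 to 21.3 for counting error alone. It did not pass the edgeR test at 0 h (adjusted p = 0.460, or 0.578 without the mouse labelled WT 1). At 3, 6 and 24 h its levels in the genotypes overlapped.

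Whether the response itself depended on genotype was asked with the interaction of genotype and time. No member was called at 3 h, where 0% of all genes were, at 6 h, where 0.0261% were, or at 24 h, where 0% were (0 members at an unadjusted p under 0.05 at any of these times, and 0 by DESeq2 or limma-voom). Without the mouse labelled WT 1, 0 members were called by edgeR at 3, 6 and 24 h, beside 0%, 0.0511% and 0.102% of all genes. With mouse as a block, which takes up that all 4 libraries of a mouse share a source, the 6 h response of Rarg was called different, by 0.71 on the log2 scale (adjusted p = 0.0187), in a fit that called 4.68% of all genes, against 0.72 without the block (adjusted p = 0.440). By 6 h the change of Rarg on the log2 CPM scale ran from -1.34 to -1.07 in the WT mice and from -0.64 to -0.23 in the Aim2-/- mice.

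The rest of the pathways was followed in 8 lists of 118 genes that hold none of the members, of which 76 passed the filter on low counts. Of the 42 not tested, 22 had no more than 3 counts in any library. Among these 76, 12 rose and 14 fell at 3 h in WT, and 10 rose and 11 fell in Aim2-/-. At 6 h 19 rose and 22 fell in WT, and 23 rose and 23 fell in Aim2-/-. At 24 h 21 rose and 35 fell in each genotype, with a median log2 change of -0.40 in WT and -0.34 in Aim2-/- beside -0.01 and 0.03 over all genes tested. Of all genes tested, 16.2% rose and 16.4% fell at 3 h in WT, and 16.1% and 14.6% in Aim2-/-. At 6 h these shares were 26.4% and 24.8% in WT and 28.5% and 22.7% in Aim2-/-. At 24 h they were 36.6% and 34.8% in WT and 36.8% and 33.5% in Aim2-/-, the background of each list below. With mouse as a block, the list genes that fell at 3 h numbered 23 in WT and 22 in Aim2-/-. Without the mouse labelled WT 1, 6 rose and 8 fell at 3 h in WT, and without WT mouse 3 again 6 and 8; without Aim2-/- mouse 4, 5 rose and 6 fell at 3 h in Aim2-/-. The lists, like the members, were chosen with earlier results of these data known, so their counts and p-values do not take account of that choice. Shares by list are plotted for 24 h.

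**Figure D4:**
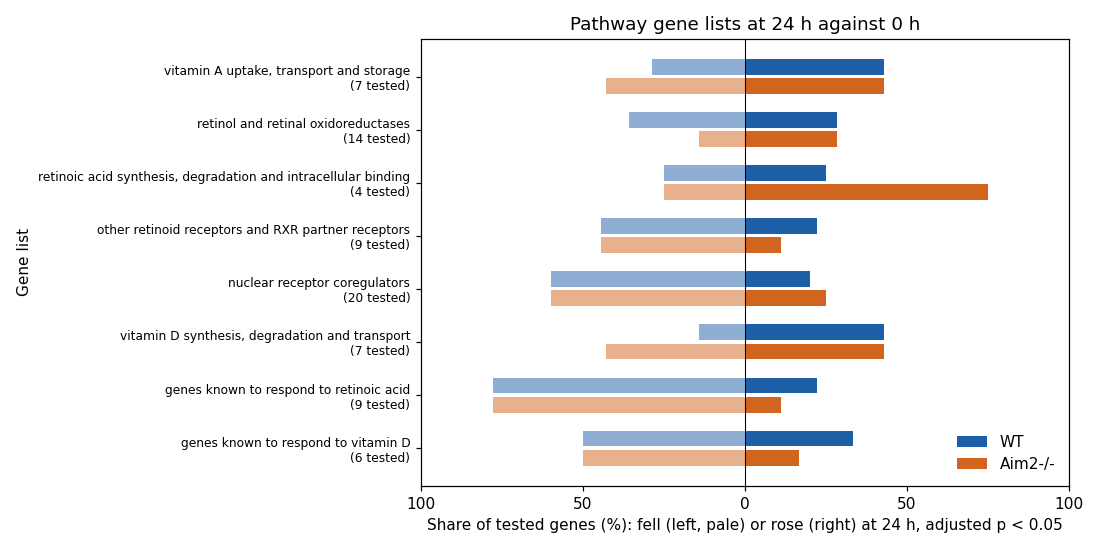
Share of the tested genes of 8 pathway lists that fell (left, pale) or rose (right) at 24 h against 0 h with an adjusted p under 0.05, in percent (x axis, 0 in the middle), in WT (blue) and Aim2-/- (orange); the number tested stands beside each list. The list of genes known to respond to retinoic acid had the most falls for its size, 7 of 9 in each genotype. Of all genes tested, 34.8% fell and 36.6% rose in WT, and 33.5% and 36.8% in Aim2-/-.

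In the uptake and storage of vitamin A, 3 genes rose and 2 fell of 7 tested at 24 h in WT, and 3 rose and 3 fell in Aim2-/- (medians 0.03 and 0.14). Scarb1, which takes up carotenoids and lipids, rose from 11.4 ± 0.787 to 88.6 ± 6.62 CPM in WT (log2 change 2.96, adjusted p = 2.1e-12; SD, n = 3) and by 2.33 in Aim2-/-. Stra6, the retinol importer, rose from 0.203 to 3.11 CPM in WT (3.90, adjusted p = 1.6e-05) and from 0.0807 to 2.62 CPM in Aim2-/-. Dgat1, which stores retinol and fat as esters, fell from 531 ± 42.3 to 21.7 ± 2.00 CPM in WT (-4.61, adjusted p = 7.03e-14), with a log2 change of -4.59 in Aim2-/-. Lrp1, a lipoprotein receptor, fell as well (-2.80 in WT and -2.60 in Aim2-/-).

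Of the retinol and retinal oxidoreductases, 4 rose and 5 fell of 14 tested in WT at 24 h, and 4 rose and 2 fell in Aim2-/- (medians -0.14 and -0.08). Adh1, an alcohol dehydrogenase that can oxidize retinol, fell from 11.6 ± 4.66 to 0.410 ± 0.187 CPM in WT (-4.80, adjusted p = 2.04e-09) and Rdh12, a retinal reductase, fell by 1.65 on the log2 scale. Dhrs4 (1.34) and Adh4 (2.30, from 0.640 to 3.19 CPM) rose in WT. Rdh10, which catalyses the first oxidation of retinol, stood at 14.5 ± 1.34 CPM at 0 h and 12.1 ± 0.713 CPM at 24 h in WT (adjusted p = 0.0941).

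Of the 10 genes for synthesis, degradation and binding of retinoic acid, 4 could be tested. At 24 h, 1 rose and 1 fell in WT and 3 rose and 1 fell in Aim2-/- (medians 1.77 and 1.88). Fabp5, the other carrier of retinoic acid into the nucleus, which serves a different receptor from Crabp2, rose from 2.77 ± 0.526 to 42.5 ± 0.971 CPM in WT (3.94, adjusted p = 2.6e-14) and from 4.80 to 42.4 CPM in Aim2-/- (3.14). Cyp2s1, a cytochrome that can oxidize retinoic acid, went from 16.9 to 38.5 CPM at 3 h and to 3.43 CPM at 24 h in WT. Aldh1a1, which makes retinoic acid from retinal, stood at 0.982 CPM at 0 h and 2.16 CPM at 24 h in WT (adjusted p = 0.0646) and rose from 3.83 to 10.1 CPM in Aim2-/- (1.40, adjusted p = 0.0135), a call that was lost without Aim2-/- mouse 1 (1.13, adjusted p = 0.111). Aldh1a2, which does the same, lay at or under 2 counts per WT library at 0 h and was at least 4.50-fold higher at 6 h (0.686 CPM). At 24 h in WT its mean was 0.205 CPM, 1.35 times the floor, and the change was not called. In Aim2-/- it stood at 0.114 CPM at 0 h and 0.610 CPM at 24 h, a rise that was called. The call in Aim2-/- was lost without Aim2-/- mouse 1, Aim2-/- mouse 4 or WT mouse 3 (adjusted p = 0.417, 0.0865 and 0.0560). Aldh1a3, Cyp26a1, Cyp26b1 and Crabp1 were not tested, with at most 9, 14, 7 and 0 counts in a library.

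Of the remaining retinoid receptors and RXR partners, 2 rose and 4 fell of 9 tested in WT, and 1 rose and 4 fell in Aim2-/- (medians -0.46 and -0.83). Rora fell from 155 ± 32.7 to 4.67 ± 1.27 CPM in WT (-5.05, adjusted p = 1.03e-11), Thra, a thyroid hormone receptor, fell by 1.49 on the log2 scale, and Nr2f6, an orphan receptor, rose by 1.81. The fatty acid receptor Pparg stood at 0.491 and 0.357 CPM at 0 and 24 h in WT (adjusted p = 0.544), and the oxysterol receptor Nr1h3 at 1.03 and 0.749 CPM (adjusted p = 0.274). All 20 coregulators were tested, of which 4 rose and 12 fell in WT and 5 rose and 12 fell in Aim2-/- (medians -0.50 and -0.45). The arginine methyltransferases Prmt1, from 102 ± 8.29 to 612 ± 39.1 CPM, and Carm1, from 63.5 ± 3.65 to 228 ± 9.92 CPM, rose most in WT, and the corepressor Nrip1 (-2.22) and the acetyltransferase Crebbp (-2.09) fell most.

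In the vitamin D pathway beside Vdr, 3 genes of synthesis and transport rose and 1 fell of 7 tested in WT, and 3 rose and 3 fell in Aim2-/- (medians 0.73 and 0.49). Cyp27b1, which makes active vitamin D, had at most 3 counts in any library at 0 h, and its mean was at least 6.58-fold higher at 6 h (1.00 CPM) and 3.35-fold higher at 24 h in WT, and at least 3.90-fold and 3.32-fold higher in Aim2-/-. Its 24 h call in WT was lost without the mouse labelled WT 1 (adjusted p = 0.0836) or WT mouse 4 (0.0773), and in Aim2-/- without mouse 4 (0.0532). Dhcr7, which draws the common precursor into cholesterol, rose by 1.42 in WT, and Pdia3 by 0.76. Cyp24a1, the enzyme that degrades active vitamin D and answers strongly to Vdr, had 2 counts in the 24 libraries together.

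Genes known to respond to retinoic acid mostly fell at 24 h: 2 rose and 7 fell of 9 tested in WT, and 1 rose and 7 fell in Aim2-/- (medians -1.71 and -1.47). Over all genes tested, 34.8% fell in WT and 33.5% in Aim2-/-. The gut-homing receptor Ccr9 fell from 5.33 ± 1.93 to 0.461 ± 0.225 CPM in WT (-3.52, adjusted p = 1.1e-06), Itga4 from 440 ± 115 to 46.4 ± 12.4 CPM (-3.24, adjusted p = 9.1e-09) and Itgb7 from 382 ± 34.3 to 156 ± 19.4 CPM (-1.29, adjusted p = 2.97e-08). The receptor kinase Ret fell by 4.52 on the log2 scale, from 8.32 to 0.356 CPM. Rai14 (2.17) and the transglutaminase Tgm2 (1.80) rose in WT. Of the genes known to respond to vitamin D, 2 rose and 3 fell of 6 tested in WT, and 1 rose and 3 fell in Aim2-/- (medians -0.94 and -0.76). The cell cycle inhibitor Cdkn1a fell from 46.0 ± 9.08 to 16.7 ± 1.63 CPM in WT. Cd14, itself among the myeloid markers, was at least 7.73-fold lower at 24 h in WT. The median myeloid marker sum in WT was 80.8 CPM at 0 h and 24.4 CPM at 24 h. The cytokine Tnfsf11 rose by 0.62 in WT (adjusted p = 0.0377), a call lost without the mouse labelled WT 1, WT mouse 3, WT mouse 4 or Aim2-/- mouse 4 (adjusted p = 0.0947, 0.138, 0.0737 and 0.0528).

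Between the genotypes, 5 of the 76 list genes were called at 0 h (6.58%, beside 5.23% of all genes), 17 at 6 h (22.4%, beside 15.8%) and 2 at 24 h (2.63%, beside 0.666%). At 3 h edgeR called 0 (0.294% of all genes) and DESeq2 2 (2% of all genes). Aldh1a1 was higher in Aim2-/- by 1.96 ± 0.53 at 0 h (adjusted p = 0.0381), 2.42 ± 0.50 at 6 h (adjusted p = 0.00776) and 2.23 ± 0.50 at 24 h (adjusted p = 0.0422), with means of 10.5 against 1.94 CPM at 6 h; at 3 h its adjusted p was 0.118. Hoxb4, a homeobox factor, was higher by 0.87 at 0 h (adjusted p = 0.0302), 1.09 at 6 h (adjusted p = 0.00695) and 1.13 at 24 h (adjusted p = 0.0317). Fabp5 was higher by 0.79 at 0 h (adjusted p = 0.0101), and the mediator subunit Med1 lower by a log2 value of -0.45 at 6 h (adjusted p = 0.00686), as were 6 more coregulators at 6 h. Apart from Fabp5 at 0 h and Aldh1a1 at 24 h, which also held without the mouse labelled WT 1, the 0 h and 24 h calls of these genes held without Aim2-/- mouse 2 alone. At 6 h the count fell to 0 without WT mouse 4, 1 without WT mouse 3, 4 without Aim2-/- mouse 4 and 5 without Aim2-/- mouse 1, and was 13 without the mouse labelled WT 1 and 24 without Aim2-/- mouse 2, while over all genes it went from 2421 to 95, 179, 422, 295, 1792 and 4020. Cd14, called higher in Aim2-/- at 0 h, is itself among the myeloid markers, and the part of myeloid cells in these differences was not tested.

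The genes whose log2 CPM followed a member most closely over the 24 libraries were looked up among 12950 genes. As all libraries share the same time course, these correlations are a description and carry no test. Crabp2 was followed by Nop16 and Timm10 (each r = 0.992), Rxra by Nsd2 (0.974), Blm (0.969) and Mcm4 (0.968), and Rxrb by Rhobtb2 (0.946), Agap3 (0.942) and Ubash3a (0.940). Rara was followed by Arih2 and Cd27 (each 0.982) and Klc2 (0.980), and Rarg by Tbc1d4 (0.978), Smpdl3a (0.977) and Endod1 (0.972). Dhrs3 was followed by Mvp (0.978), Tdrd7 (0.977) and Msrb3 (0.973), and Vdr, at lower values, by Ispd (0.929), Acot11 (0.924) and Coro2b (0.921).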

How the data were processed

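Alignment was to GRCm38 with STAR, and the authors deposited raw counts per gene without normalization; stranded libraries were read from 1 end, and whether counting used the strand is not given in the sources used here. Gene symbols and exon lengths came from a GENCODE annotation of that build (54409 of 54446 identifiers). Libraries were grouped by their labels. The main fit was edgeR 4.0.16 in R 4.3.3: a quasi-likelihood F test over the 24 libraries, in which each of the 8 groups had its own mean, with TMM factors, the filterByExpr filter (minimum count 10, 15325 genes kept) and Benjamini-Hochberg adjustment, with genes called at an adjusted p under 0.05. The SE is the fold change divided by the root of F. CPM use TMM-scaled totals, log2 CPM a prior count of 2, and the floor is 3 counts (0.129 to 0.155 CPM). The 3 replicates of a group are different mice, and the spread within groups was estimated over all 8 groups together. The main fit takes the 24 libraries as independent, though they came from 6 mice. Each mouse thus enters the estimate of spread at all 4 times, and the pairing of times within a mouse is not used.

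The test was tried on simulated counts with 1 spread for all genes, no time course and no effect of mouse. That trial does not cover libraries that share a mouse, and nothing is read from it. DESeq2 1.42.0, limma 3.58.1 (voom), RLE factors, other filters, subsets of libraries and blocks were alternatives. The 36 pairs of libraries of 1 mouse deviated together (r from 0.139 to 0.567), so mice pair the times. The members and lists were chosen with earlier results of these data known. The genes named are Aim2, the members, 17 key steps, the leading rises and falls of each list at 24 h in WT (mean of at least 1 CPM), list genes leading a genotype contrast, and the 3 genes most like each member, of which 1 is not reported here. Cd14 in the genotype comparison was named after its values were seen.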

Additional observations from a re-analysis of the deposited data

How the results depend on the processing

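The alternatives left the direction of all single-gene values as reported: of 1498 such values, 1418 kept their side of the threshold or moved by less than the spread between mice, 63 lost a call (51 of them without 1 mouse), 8 gained a call and 9 moved further, among them fits of Crabp2 over its WT 0 h libraries, which lie under the floor. Counts of genotype calls depended most on the processing. With DESeq2, 12 list genes passed at 0 h and 2 at 3 h, 7 passed at 24 h, and 14 did over mice, beside 10.2%, 2%, 5.14% and 10.1% of all genes. Limma-voom called 0 list genes and 0 members at 24 h. Without a filter on low counts, 16 list genes were called at 0 h, 7 at 3 h, 13 at 24 h and 5 over mice, and 2 members at 6 h. With only the libraries compared, 11 list genes were called at 6 h and 0 at 24 h, and 0 members at 24 h. With mouse as a replicate block, 23 list genes fell at 3 h in WT and 22 in Aim2-/-, and 1 member was called for the 6 h interaction. The mouse numbers do not pair WT with Aim2-/- mice (r from -0.165 to 0.300), and with them as a block 34, 22, 35 and 30 list genes were called at 0, 3, 6 and 24 h, and 1, 3 and 2 members at 0, 6 and 24 h, in fits that called 23.6%, 15.2%, 36% and 21.1% of all genes at 0, 3, 6 and 24 h.

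Leaving out 1 mouse gave 0 to 2 members at 6 h and 0 to 1 at 24 h, and 0 to 23, 0 to 9, 0 to 24, 0 to 24 and 0 to 28 list genes at 0, 3, 6 and 24 h and over mice; the highest list counts came without Aim2-/- mouse 2. List genes that rose or fell at 3 h ranged from 6 to 13 and 8 to 15 in WT, and from 5 to 11 and 6 to 10 in Aim2-/-. Levels near the floor of 3 counts, such as Crabp2 at 0 h, carry counting error.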
